A study of Mus musculus with 12 samples.

Results

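Epidermal myeloid cells of newborn mice that lack Cbfβ2 were compared with those of wild-type mice at day 5 after birth (P5). The comparison sets the 3 P5 Cbfβ2 knockout libraries (KO) against the 3 P5 wild-type libraries (wt), 6 of the 12 libraries of the series, over all genes. The other 6 libraries are wt and KO cells at 1.5 months of age (1.5M), with 3 per group. All 12 were made from 100 cells each, taken from epidermis by the gate CD45+CD3-CD11b+MHCII+, which Langerhans cells and related myeloid cells pass. Strain, sex, the number of animals and whether the knockout is confined to a cell type are not given in the sources used for this work. Within a group the labels speak of separate library preparations, so p-values measure the spread between preparations, which may be technical.

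Cbfβ is the subunit that binds no DNA in the core-binding factors. It pairs with Runx1, Runx2 or Runx3 and strengthens their hold on DNA, and Cbfβ2 is one of its splice forms. Runx factors and TGF-β are known to be needed for Langerhans cells, the antigen-presenting cells that seed the epidermis before birth and acquire the adhesion molecule E-cadherin and the endocytic lectin langerin as they mature.

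Values are scaled molecule counts. A molecular barcode lets each captured RNA molecule be counted once, and every library had been scaled to the same total of 37092. The P5 wt libraries held 34192 to 52208 molecules each and the P5 KO libraries 30913 to 51001, with 6878 to 8123 and 6741 to 7821 genes detected. A gene at 0 in a whole group could still be present at up to 3 molecules in it, which is 0.895 scaled counts in P5 wt and 0.907 in P5 KO. This floor covers counting error only. A fold given as at least a value sets the mean of the other group against the floor and leaves out the spread of that group. Pairs of P5 wt libraries differed slightly beyond counting error (1.15 to 1.27 for the chi-square over its degrees of freedom) and pairs of P5 KO libraries by more (1.79 to 2.12). Log2 fold changes are KO over wt on the scale of log2(scaled count + 1), which understates changes of low genes, and are given with a standard error (SE). Adjusted p-values are from limma fitted to all 12 libraries and 10023 genes, and a gene is called when its adjusted p is under 0.05.

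The sorted cells carried RNA of the antigens used to sort them. Ptprc, which encodes CD45, was 15.6, 18.4 and 13.7 in P5 wt and 12.7, 18.9 and 13.2 in P5 KO. Itgam, which encodes CD11b, was 4.26, 7.59 and 2.93 in P5 wt and 13.6, 8.0 and 8.4 in P5 KO and was not called (adjusted p = 0.33). Of 11 measured T and NK cell markers just 1 had enough signal to be tested, and Cd3e and Cd3g were 0 in all 6 P5 libraries. The defining genes of Langerhans cells were unequal at this age. Epcam and Cdh1 were well above 0 in every P5 wt library (values below), while Cd207, the langerin gene, was 0.71, 1.08 and 2.93 in P5 wt and 0, 0 and 0 in P5 KO, at most 3 molecules in any library. Ly75 and Itgae, other markers of skin dendritic cells, were 0 in all 6.

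Cbfb, the targeted gene (chromosome 8, 105170674 to 105217989, mm10), was 4.97, 4.34 and 3.91 across the 3 P5 wt libraries against 3.63, 1.45 and 2.4 across the 3 P5 KO libraries. The KO libraries were all below the wt libraries, but the difference was not called (log2 fold change −0.67, SE 0.39, adjusted p = 0.49). The molecules are counted near the 3' end of a gene, so the values check the gene and cannot separate the Cbfβ2 form. Runx1 was 2.13, 6.51 and 0.977 in P5 wt and 7.27, 10.2 and 9.6 in P5 KO. Every KO library was above every wt library, without a call (log2 fold change 1.47, SE 0.41, adjusted p = 0.0739). Runx3, the partner most tied to Langerhans cells, was 7.82, 4.34 and 9.77 in P5 wt and 6.36, 10.2 and 4.8 in P5 KO, and the groups overlapped. Of the 10 tested members of the Runx and Cbf list none was called, and the median log2 fold change was 0.08.

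In P5 KO 115 genes were called higher (1.15% of the 10023 tested) and 65 lower (0.649%), 1.8% in all, and 1278 had an unadjusted p under 0.05. Over all genes tested the median log2 fold change was −0.01. The lower calls included adhesion and lipid mediator genes of Langerhans cells, class II presentation genes, Tbc1d4, Zmynd15 and Trp53i11. The higher calls with the largest changes were calprotectin, stefin, Retnla and globin genes, and lysozymes, chemokines, phagocyte receptors and immediate early genes were also among them. In 100 pooled cells a larger share of a cell type and more RNA per cell cannot be told apart. The 2 groups did not overlap for 113 of the 115 and for all 65, against 6.23% and 6.02% of all tested genes that were higher or lower with no overlap. The call favours genes whose groups lie apart in these same libraries, so the lack of overlap is no separate support. Calls depended on single libraries, and 26 of the 115 and 19 of the 65 were made in each of the 6 fits that left out 1 P5 library. The counts of higher and lower calls were 45 and 34 without P5 wt library 2, 37 and 37 without P5 wt library 3, and 55 and 34 without P5 KO library 1. A share of the calls rests on few molecules. Of the higher calls 20 were 0 in P5 wt and at most 3 molecules in each P5 KO library, and 9 of these were exactly 1 molecule in each. Of the lower calls 9 were 0 in P5 KO and at most 3 molecules in each P5 wt library, and 5 of these were exactly 1 molecule in each. Genes were tested when above 0 in at least 3 of 12 libraries. Any of these genes at 0 in all other libraries was tested only through the group in which it is high. The call of such a gene is no separate support, and the counts of calls include such genes. Where the omission of a library ended the call of a named gene, the library is given with the adjusted p without it in parentheses. A value in parentheses before an adjusted p is the log2 fold change. Calls of named genes made in all 6 such fits could still depend on the fit. A pseudocount of 0.1 ended those of Zmynd15 (adjusted p = 0.101), Cxcr4 (0.0581), Capg (0.143), Nfkbiz (0.05004), Lyz2 (0.101), Ccl9 (0.105), BC100530 (0.0764) and Stfa2l1 (0.0856), and limma without its mean-variance trend ended those of the abundant genes Cst3 (0.113), Fxyd5 (0.0849), Rgs2 (0.0831), Psap (0.118) and Plbd1 (0.0574). The call of Fpr2 ended when the 6 P5 libraries were fitted alone (0.324).

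**Figure D1:**
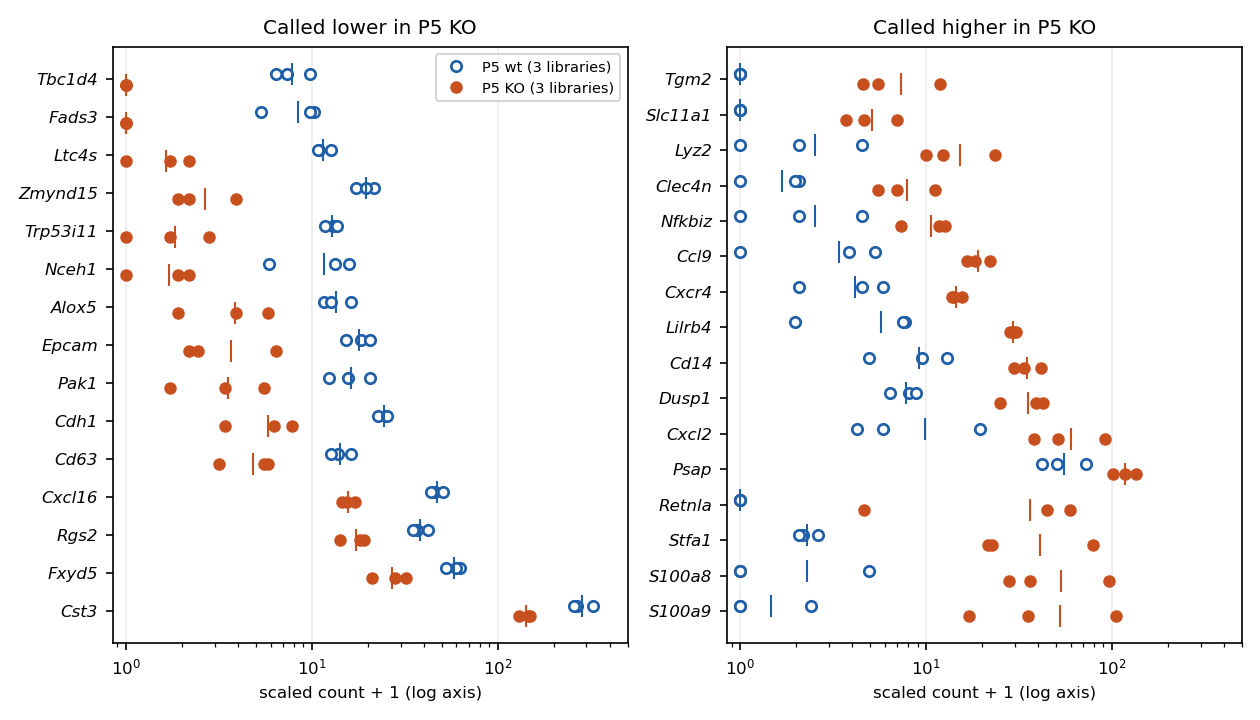
Scaled count plus 1 on a log axis for 15 genes called lower (left) and 16 called higher (right) in P5 KO. Open circles are the 3 P5 wt libraries, filled circles the 3 P5 KO libraries, and vertical ticks the group means. The groups do not overlap for any gene shown, and Retnla, S100a8 and S100a9 spread widely among the KO libraries.

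Several genes that tie Langerhans cells to the epidermis were lower. Among 14 tested marker genes of Langerhans cell identity there were 7 lower and 0 higher calls, and the median log2 fold change was −0.93. The list, like the other lists, was chosen with earlier results of these data known, so its count of calls is no separate support. It shares Ltc4s and Cd74 with lists described below. Epcam, an epithelial adhesion molecule (chromosome 17, 87635979 to 87651129), was 14.2, 17.4 and 19.5 across the 3 P5 wt libraries against 5.45, 1.45 and 1.2 across the 3 P5 KO libraries. Every wt library was above every KO library, and KO library 1 was the highest of its group (log2 fold change −2.45, SE 0.35, adjusted p = 0.000489). Cdh1, which encodes E-cadherin, was 24, 21.7 and 24.4 in P5 wt and 6.81, 5.27 and 2.4 in P5 KO, a narrow band in wt well above all KO values (log2 fold change −2.15, SE 0.38, adjusted p = 0.00357). In 4 of the 12 libraries its count includes fractions of molecules, which makes it less certain. Cldn1, a tight junction claudin, was 13.5, 8.68 and 13.7 in P5 wt and 2.72, 1.45 and 4.8 in P5 KO (−1.76, adjusted p = 0.00934), and its call was lost on omitting wt library 3 (0.0577). Mfge8, a bridge between dying cells and phagocytes, was 8.53, 3.25 and 4.88 in P5 wt and 0.908, 1.45 and 0 in P5 KO (−1.89, adjusted p = 0.0111), lost on omitting wt library 1 (0.0728) or KO library 3 (0.0568). The call of Cd207 (−1.27, adjusted p = 0.0421) was lost on omitting wt library 2 (0.0634) or 3 (0.186) or KO library 1 (0.084), 2 (0.073) or 3 (0.0738). Ctnnd2, a catenin that binds cadherins, was 4.97, 6.51 and 4.88 in P5 wt and 2.72, 0 and 1.2 in P5 KO, without a call (adjusted p = 0.0681). Cd24a, a small surface glycoprotein, was 5.68, 9.76 and 0.977 in P5 wt and 6.36, 1.45 and 6.0 in P5 KO and was not called (adjusted p = 1.0).

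Leukotriene C4 synthase, 5-lipoxygenase and a prostaglandin-degrading enzyme were lower. Of 17 tested members 3 fell (Ltc4s, Alox5 and Hpgd), 0 rose, and the median over the list was −0.18. Ltc4s makes leukotriene C4 (chromosome 11, 50236461 to 50238616), and its count was 9.95, 9.76 and 11.7 across the 3 P5 wt libraries against 0, 0.727 and 1.2 across the 3 P5 KO libraries. The KO values amount to at most 1 molecule in a library (log2 fold change −2.87, SE 0.40, adjusted p = 0.00030). Alox5, the lipoxygenase that starts leukotriene synthesis (chromosome 6, 116410077 to 116461178), was 10.7, 15.2 and 11.7 in P5 wt and 0.908, 2.91 and 4.8 in P5 KO. The groups were far apart (log2 fold change −1.93, SE 0.35, adjusted p = 0.00423). Hpgd breaks down prostaglandins and was 12.8, 19.5 and 7.81 in P5 wt and 3.63, 0.727 and 4.8 in P5 KO (−1.92, adjusted p = 0.0195), a call lost on omitting wt library 1 (0.0692) or 2 (0.107) or KO library 2 (0.089). Alox5ap, which hands arachidonic acid to Alox5, was 22, 26 and 13.7 in P5 wt and 10.9, 16.7 and 14.4 in P5 KO (adjusted p = 0.49). Ptgs1, a cyclooxygenase, and Hpgds, a prostaglandin D synthase, were lower in each KO library than in any wt library but were not called, with Ptgs1 at 12.1, 9.04 and 8.79 in P5 wt and 4.54, 5.09 and 6.0 in P5 KO (adjusted p = 0.292) and Hpgds at 9.24, 7.59 and 10.7 in P5 wt and 3.63, 3.64 and 4.8 in P5 KO (adjusted p = 0.0681). Ptgs2, the inducible cyclooxygenase, lay in the opposite direction at 2.13, 1.08 and 1.95 in P5 wt and 6.36, 6.55 and 4.8 in P5 KO, also without a call (adjusted p = 0.161). A pair of fatty acid desaturase genes from outside the list was lower as well. Fads3 (chromosome 19, 10041569 to 10060110) was 9.24, 4.34 and 8.79 in P5 wt and 0, 0 and 0 in P5 KO, at least 8.22-fold lower against the floor of 3 molecules over the group (adjusted p = 0.000558). Fads1 was 7.1, 10.8 and 7.81 in P5 wt and 1.82, 2.91 and 0 in P5 KO (−2.09, adjusted p = 0.0171), lost on omitting wt library 2 (0.0861) or 3 (0.0616) or KO library 3 (0.0801).

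The promoter of Ltc4s is shown because the Runx core, TGTGGT on either strand, occurs in it and Ltc4s is among the members most reduced. Capitals mark the match, written here on the gene's strand as its reverse complement. The sequence is RefSeq's for GRCm38.p6, chr11:50238533-50238782, minus strand, the 250 bases before the start of transcription.
Ltc4s: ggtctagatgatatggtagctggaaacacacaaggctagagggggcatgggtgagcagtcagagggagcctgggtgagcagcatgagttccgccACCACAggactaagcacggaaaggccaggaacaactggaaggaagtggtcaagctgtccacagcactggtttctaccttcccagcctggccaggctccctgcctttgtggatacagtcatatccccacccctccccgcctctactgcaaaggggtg
The promoter was chosen after matches had been seen. The core occurs in 16.8% of all 32851 RefSeq promoters searched over 250 bases before to 50 after a start, so 1 match is common. Entries were found for 51 of the 65 lower and 83 of the 115 higher genes, under 80% of each, and shares of motifs among the called genes are void for that reason.

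Zmynd15 and Cxcl16 are divergent neighbours on chromosome 11 and both fell, a pair that was singled out after its values were seen. Their annotated intervals overlap by 552 bases at their starts (GENCODE M21, mm10), Cxcl16 on the minus strand from 70453983 to 70459984 and Zmynd15 on the plus strand from 70459433 to 70466202. Zmynd15, a zinc finger gene, was 20.6, 16.3 and 18.6 across the 3 P5 wt libraries against 0.908, 2.91 and 1.2 across the 3 P5 KO libraries, so that the lowest wt library was several times above the highest KO library (log2 fold change −2.93, SE 0.44, adjusted p = 0.000658). Cxcl16, a membrane-bound chemokine that binds Cxcr6, was 44.8, 49.9 and 43 in P5 wt and 13.6, 16 and 14.4 in P5 KO, with little spread in either group (log2 fold change −1.58, SE 0.18, adjusted p = 3.59e-05). Whether strand was used in counting is unknown from the labels. The overlap lies at the starts of both genes, and the molecules were counted near the 3' ends. Other called genes also lay side by side. Among the 168 called genes with a single annotated interval, 6 pairs were within 20 kb of each other, and both genes of each pair moved in the same direction. The others were H2-Ab1 with H2-Aa, which fell, and Lyz2 with Lyz1, Ccl9 with Ccl6, Gm5416 with 2010005H15Rik and 2010005H15Rik with Stfa1, which rose. Some of these are near copies of each other, whose molecules the counting could share between them.

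Other genes were at or near 0 in P5 KO. Tbc1d4, which regulates the Rab GTPases that bring glucose transporters to the surface (chromosome 14, 101442360 to 101609191), was 6.39, 5.42 and 8.79 across the 3 P5 wt libraries against 0, 0 and 0 across the 3 P5 KO libraries. It was at least 7.58-fold lower against the floor (adjusted p = 3.21e-05). Trp53i11, named as a p53-inducible gene (chromosome 2, 93187548 to 93201759), was 12.1, 10.8 and 12.7 in P5 wt and 1.82, 0.727 and 0 in P5 KO (log2 fold change −2.92, SE 0.41, adjusted p = 0.00033). Nceh1, a neutral cholesterol ester hydrolase, was 14.8, 12.3 and 4.88 in P5 wt and 0.908, 0 and 1.2 in P5 KO (log2 fold change −2.73, SE 0.41, adjusted p = 0.000658). In these 3 genes every wt library lay above every KO library. Slc36a2, an amino acid transporter, was 4.14, 9.04 and 4.4 in P5 wt and 0, 0 and 0 in P5 KO, at least 6.46-fold lower (adjusted p = 0.00122), with fractions of molecules in 4 libraries. Fam189a2 was 9.24, 9.76 and 7.81 in P5 wt and 0, 1.45 and 1.2 in P5 KO (−2.5, adjusted p = 0.0056). Siglech, named for the family of sialic acid-binding lectins, is known from plasmacytoid dendritic cells and microglia. It was 6.39, 9.76 and 2.93 in P5 wt and 0, 0.967 and 0 in P5 KO (−2.44, adjusted p = 0.0139), lost on omitting wt library 2 (0.0526) or KO library 1 (0.0621) or 3 (0.0568). Plxnc1, a semaphorin receptor, was 4.26, 6.51 and 6.84 in P5 wt and 0, 2.91 and 0 in P5 KO (−2.1, adjusted p = 0.0312), lost on omitting wt library 1 (0.0604), 2 (0.105) or 3 (0.118) or KO library 1 (0.14) or 3 (0.119). Xlr, a lymphocyte-regulated gene with near copies on the X chromosome, was 6.39, 4.34 and 10.3 in P5 wt and 0, 1.45 and 1.2 in P5 KO (−2.12, adjusted p = 0.00842), lost on omitting wt library 3 (0.0667) or KO library 1 (0.0509).

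Several signalling genes fell. Pak1, a kinase that acts downstream of Rac and Cdc42, was 11.4, 19.5 and 14.7 in P5 wt and 4.54, 0.727 and 2.4 in P5 KO (log2 fold change −2.31, SE 0.36, adjusted p = 0.0010). Prkcb, a protein kinase C, was 13.5, 8.68 and 4.88 in P5 wt and 0.908, 2.91 and 1.2 in P5 KO (log2 fold change −1.88, SE 0.36, adjusted p = 0.00674), a call that the fit on approximate molecules (limma's voom) did not make (adjusted p = 0.0582). Rgs2, which damps G protein signals, was 41.2, 35.8 and 34.2 in P5 wt and 17.3, 18.2 and 13.2 in P5 KO, groups well apart (log2 fold change −1.15, SE 0.20, adjusted p = 0.00321). Rgs1, of the same family, was 27, 22.8 and 20.5 in P5 wt and 12.7, 10.9 and 7.2 in P5 KO (−1.14, adjusted p = 0.0176), lost on omitting wt library 1 (0.0789) or 2 (0.0592) or KO library 3 (0.0831). Dok3, an adaptor that restrains immune receptors, was 8.53, 14.1 and 10.7 in P5 wt and 2.72, 2.91 and 0 in P5 KO (−2.29, adjusted p = 0.00969), lost on omitting wt library 2 (0.0634). Abundant genes were lower too. Cst3, which encodes the protease inhibitor cystatin C, was 264, 257 and 322 across the 3 P5 wt libraries against 130, 148 and 144 across the 3 P5 KO libraries. The spread within each group was small beside the gap between them (log2 fold change −0.99, SE 0.11, adjusted p = 3.28e-05). Fxyd5, a regulator of the sodium pump, was 61.8, 58.6 and 51.8 in P5 wt and 19.98, 26.9 and 31.2 in P5 KO (log2 fold change −1.13, SE 0.19, adjusted p = 0.00184). Cd63, a tetraspanin of late endosomes, was 12.8, 15.2 and 11.7 in P5 wt and 4.54, 2.18 and 4.8 in P5 KO (log2 fold change −1.6, SE 0.29, adjusted p = 0.00435). Of 31 tested lysosomal genes 2 fell (Cd63 and Cst3), 1 rose (Psap) and the median was −0.06.

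Some antigen presentation genes were lower, by small amounts. Of 15 tested class II presentation genes 4 fell and 0 rose (median −0.37). Cd74, the invariant chain, was 692, 856 and 710 in P5 wt and 474, 532 and 592 in P5 KO (−0.50, adjusted p = 0.0111), and H2-Aa was 502, 427 and 440 in P5 wt and 290, 329 and 379 in P5 KO (−0.46, adjusted p = 0.0208). H2-Ab1 was 179, 151 and 184 in P5 wt and 79, 121 and 119 in P5 KO (−0.70, adjusted p = 0.020). H2-DMa, which loads peptide, was 63.9, 48.8 and 62.5 in P5 wt and 27.2, 30.5 and 37.2 in P5 KO (−0.86, adjusted p = 0.0148). The groups did not overlap for any of the 4. H2-Eb1, at 168, 142 and 181 in P5 wt and 111, 136 and 167 in P5 KO, was not called (adjusted p = 0.429). MHCII was part of the sorting gate, which limits what these genes can show. Each of the 4 calls depended on libraries. That of Cd74 was lost on omitting wt library 2 (0.0964) or KO library 1 (0.0681). That of H2-Aa was lost on omitting wt library 1 (0.108), 2 (0.0503) or 3 (0.063) or KO library 1 (0.111) or 2 (0.0588). That of H2-Ab1 was lost on omitting wt library 1 (0.0852) or 3 (0.104) or KO library 1 (0.111). That of H2-DMa was lost on omitting wt library 1 (0.0682) or 3 (0.0802) or KO library 1 (0.0669). Of 19 class I presentation genes B2m fell, at 164, 153 and 150 in P5 wt and 104, 85.1 and 112 in P5 KO (−0.64, adjusted p = 0.0205), lost on omitting wt library 1 (0.0759), 2 (0.0693) or 3 (0.0647) or KO library 2 (0.080). Median-of-ratios or quantile scaling ended calls in this group, with an adjusted p of 0.0665 and 0.0928 for H2-Aa, and under quantile scaling of 0.0856 for Cd74 and 0.0593 for B2m. H2-K1, a classical class I chain, was 21.1, 26 and 19 in P5 wt and 12.9, 12.4 and 7.2 in P5 KO, every KO library below every wt library and not called (adjusted p = 0.122). Tyrobp, the signalling chain of several myeloid receptors, was 98, 113 and 85 in P5 wt and 42.7, 65.5 and 50.4 in P5 KO (−0.90, adjusted p = 0.0343), lost on omitting wt library 1 (0.0958), 2 (0.148) or 3 (0.063) or KO library 1 (0.158) or 3 (0.0981).

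Marker RNA of other cell types was higher in the P5 KO libraries, and these values stand beside the gains described below. Of 21 tested keratinocyte markers 5 were called higher and 0 lower, and the list summed to 89.9 to 138 scaled counts in P5 wt and 294 to 857 in P5 KO. The defining keratins Krt1 and Krt10 were 16.3, 23.3 and 12.7 in P5 wt and 242, 59.6 and 34.8 in P5 KO, and 19.9, 21.7 and 20.5 in P5 wt and 260, 80.002 and 52.8 in P5 KO, highest in KO library 1. Their calls (adjusted p = 0.0343 and 0.0362) were lost on omitting wt library 1 (0.106), 2 (0.0695) or 3 (0.136) or KO library 1 (0.22) or 2 (0.0697) and on omitting wt library 1 (0.118), 2 (0.105) or 3 (0.113) or KO library 1 (0.226) or 2 (0.080). Of the other called members, Lor (loricrin) was 2.84, 2.17 and 1.95 in P5 wt and 13.6, 13.8 and 7.2 in P5 KO (1.88, adjusted p = 0.0316), lost on omitting wt library 1 (0.0586), 2 (0.0882) or 3 (0.109) or KO library 1 (0.125) or 2 (0.108), and Perp, a desmosome gene, was 4.26, 3.25 and 5.86 in P5 wt and 48.1, 8.73 and 16.8 in P5 KO (1.93, adjusted p = 0.0312), lost on omitting wt library 1 (0.0878), 2 (0.114) or 3 (0.063) or KO library 1 (0.199) or 3 (0.0675). Ly6d was 2.84, 3.25 and 1.95 in P5 wt and 34.5, 14.5 and 16.8 in P5 KO (2.56, adjusted p = 0.00428). Of 7 tested neutrophil markers 3 were called higher (S100a8, S100a9 and Stfa2l1, described below) and 0 lower. The list summed to 9.58 to 20.03 in wt and 63.9 to 296 in KO. Of its 14 measured members 8 were 0 in all P5 wt libraries and 2 were 0 in all P5 KO libraries. Those 2 were the granule genes Mpo and Elane, which were 0 in all 6 libraries. The granule genes Camp, Ltf and Ngp were above 0 only in KO library 3. Of 5 tested erythroid genes 3 were called higher, and the list summed to 0 to 4.26 in wt and to 404, 524 and 2.39 in KO libraries 1, 2 and 3. An exact two-sided permutation test of the sums, which cannot go below 0.1 with 3 against 3 libraries, gave p = 0.1 for the keratinocyte and neutrophil lists and 0.2 for the erythroid list. The erythroid sums rest on globin genes, and Car2 was 0 throughout. Hbb-b1 and Hbb-b2 were 0 in all P5 wt and 1.5M libraries, so that they were tested only through the 3 P5 KO libraries. Beta-s, a beta-globin gene, was 1.42, 1.08 and 0 in P5 wt and 199, 257 and 0.396 in P5 KO (4.6, adjusted p = 0.0387), and Hbb-b2 was 0, 0 and 0 in P5 wt and 43.4, 33.1 and 0.396 in P5 KO (3.68, adjusted p = 0.0191), so that KO library 3 stood near the wt libraries. The calls of Beta-s, Hbb-b1 and Hbb-b2 were lost on omitting wt library 1 (0.0954), 2 (0.104) or 3 (0.146) or KO library 1 (0.23) or 2 (0.223), on omitting wt library 1 (0.105), 2 (0.107) or 3 (0.118) or KO library 1 (0.0928) or 2 (0.080) and on omitting wt library 1 (0.0753), 2 (0.0765) or 3 (0.0759) or KO library 1 (0.105) or 2 (0.0974). Genes of the sex chromosomes also differed in level. Of 5 measured genes in a list of X- and Y-linked genes, 4 were 0 in all P5 wt libraries and 1 was 0 in all P5 KO libraries. The Y-linked gene Ddx3y was 0, 0 and 0 in P5 wt and 0.908, 2.18 and 6.0 in P5 KO. The X-linked Xist was 36.9, 21.7 and 16.6 in P5 wt and 9.08, 10.9 and 13.2 in P5 KO. Neither Ddx3y nor Xist was called (adjusted p = 0.0774 and 0.112). Sex and genotype cannot be told apart, also for the X-linked Xlr above.

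**Figure D2:**
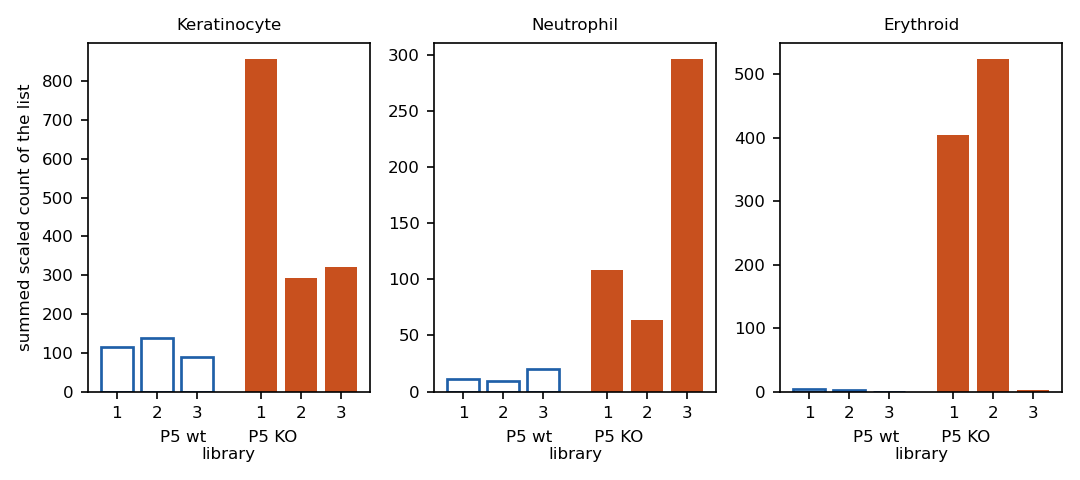
Summed scaled counts of keratinocyte, neutrophil and erythroid marker lists in each of the 3 P5 wt (open bars) and 3 P5 KO (filled bars) libraries, on linear axes that start at 0. Keratinocyte RNA is highest in KO library 1 and neutrophil RNA in KO library 3, and globin RNA is high in KO libraries 1 and 2 only.

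Calprotectin, stefins and Retnla were, with globin genes, among the higher calls with the largest fold changes. S100a8, 1 subunit of calprotectin (chromosome 3, 90668978 to 90670035), was 0, 0 and 3.91 across the 3 P5 wt libraries against 35.4, 26.9 and 94.8 across the 3 P5 KO libraries. S100a9, the other subunit (chromosome 3, 90692632 to 90695721), was 1.42, 0 and 0 in P5 wt and 34.5, 16 and 104 in P5 KO. KO library 3 was highest for both, and the highest wt library was well under the lowest KO library (log2 fold change 4.76, SE 0.56, adjusted p = 3.67e-05 for S100a8, and log2 fold change 4.89, SE 0.55, adjusted p = 3.28e-05 for S100a9). Retnla, a secreted protein of alternatively activated macrophages (chromosome 16, 48842551 to 48844461), was 0, 0 and 0 in P5 wt and 43.6, 3.64 and 58.8 in P5 KO. The KO mean was at least 39.5-fold higher against the floor (adjusted p = 0.000489), and KO library 2 was far below the others. Retnla was 0 in all libraries at 1.5M too, so that it was tested only through the 3 P5 KO libraries. The stefins, inhibitors of cathepsins, come from a cluster on chromosome 16. Stfa1 was 1.19, 1.08 and 1.63 in P5 wt and 21.5, 20.5 and 78 in P5 KO (log2 fold change 3.88, SE 0.48, adjusted p = 6.4e-05), with fractions of molecules in 4 libraries. Stfa2l1 was 2.13, 0.542 and 0 in P5 wt and 13.6, 11.3 and 28.8 in P5 KO (3.37, adjusted p = 0.00061), and Stfa3 was 2.84, 1.08 and 0.977 in P5 wt and 40.9, 5.09 and 26.4 in P5 KO (2.93, adjusted p = 0.00757), lost on omitting KO library 1 (0.0625). BC100530, of the same cluster, was 1.9, 3.25 and 3.58 in P5 wt and 38.3, 15.8 and 90.6 in P5 KO (3.35, adjusted p = 0.000489), Gm5483 was 2.13, 0 and 0 in P5 wt and 14.1, 20.7 and 38.4 in P5 KO (4.0, adjusted p = 0.000112), and Stfa2 was 2.84, 0.542 and 0.977 in P5 wt and 7.27, 7.64 and 25.2 in P5 KO (2.44, adjusted p = 0.0148), lost on omitting wt library 2 (0.0765) or 3 (0.0677) or KO library 3 (0.0761). All of them were called higher, and molecules may have been shared between near copies. Of the 25 tested members of the S100, annexin and stefin list 9 rose and 0 fell (median 0.79). Other S100 genes showed smaller differences. S100a10, the partner of annexin A2, was 10.7, 8.68 and 7.81 in P5 wt and 19.1, 26.2 and 16.8 in P5 KO (1.1, adjusted p = 0.0246), lost on omitting wt library 2 (0.0765) or 3 (0.104) or KO library 1 (0.0542) or 2 (0.0974). S100a6 was 21.3, 15.2 and 6.84 in P5 wt and 28.2, 33.5 and 34.8 in P5 KO (1.22, adjusted p = 0.0225), lost on omitting wt library 2 (0.0503) or 3 (0.118) or KO library 1 (0.0521), 2 (0.0768) or 3 (0.0831), and S100a4, at 31.3, 25 and 18.6 in P5 wt and 28.2, 42.2 and 38.4 in P5 KO, and S100a11, at 34.8, 33.6 and 23.4 in P5 wt and 23.6, 25.5 and 22.8 in P5 KO, were not called (adjusted p = 0.276 and 0.624). S100a8, S100a9 and Stfa2l1 are also the 3 called members of the neutrophil list given above. The sums of that list include them, so the 2 sets of values are not separate observations. The part of neutrophils in these gains was not tested.

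The promoter of Stfa1 is shown because the Runx core occurs in it at 2 places, marked in capitals as the reverse complement of TGTGGT. The sequence is RefSeq's for GRCm38.p6, chr16:36276898-36277147, plus strand, the 250 bases before the start of transcription.
Stfa1: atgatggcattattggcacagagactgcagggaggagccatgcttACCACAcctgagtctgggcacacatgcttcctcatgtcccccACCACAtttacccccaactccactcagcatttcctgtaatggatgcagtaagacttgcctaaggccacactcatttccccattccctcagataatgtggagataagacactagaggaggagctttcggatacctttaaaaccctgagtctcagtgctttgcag
Stfa1 rose and Ltc4s fell, and the core was found before both. This promoter too was chosen after matches had been seen.

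Lysozyme and several receptors of monocytes were higher, while C1q genes, Csf1r and Emr1, also of the macrophage and monocyte list, were not called. Of 21 tested members of the macrophage and monocyte list 5 rose and 0 fell (median 0.68). Lyz2, which encodes lysozyme, was 3.55, 1.08 and 0 across the 3 P5 wt libraries against 11.4, 22.5 and 9.0 across the 3 P5 KO libraries (log2 fold change 2.75, SE 0.50, adjusted p = 0.00428). Its copy Lyz1 was 0.71, 0 and 0 in P5 wt and 6.81, 8.0 and 4.2 in P5 KO (2.58, adjusted p = 0.00423), and both hold fractions of molecules, Lyz2 in 5 and Lyz1 in 5 of the 12 libraries. Ccr2, the receptor that calls monocytes into tissue, was 4.97, 2.17 and 1.95 in P5 wt and 8.17, 17.5 and 28.8 in P5 KO (2.17, adjusted p = 0.0191), lost on omitting wt library 2 (0.0784) or 3 (0.0969) or KO library 2 (0.0697) or 3 (0.11). Cx3cr1, the fractalkine receptor, was 2.84, 2.17 and 0.977 in P5 wt and 6.36, 9.45 and 12 in P5 KO (1.79, adjusted p = 0.0148), lost on omitting wt library 3 (0.0839) or KO library 3 (0.0655). Fcgr1, the high-affinity IgG receptor, was 2.13, 0 and 0 in P5 wt and 6.36, 5.09 and 6.0 in P5 KO (2.22, adjusted p = 0.0236), lost on omitting wt library 2 (0.0976) or 3 (0.109) or KO library 1 (0.0796) or 3 (0.0616). F13a1, a coagulation factor subunit of monocytes, was 0, 1.08 and 0 in P5 wt and 2.72, 3.64 and 2.4 in P5 KO (1.61, adjusted p = 0.0428), lost on omitting wt library 1 (0.14) or 3 (0.173) or KO library 1 (0.0542) or 2 (0.0626). The complement genes of tissue macrophages were not called, with C1qa at 27, 34.7 and 30.3 in P5 wt and 21.8, 15.3 and 22.8 in P5 KO and C1qc at 18.5, 25 and 27.3 in P5 wt and 29.1, 18.9 and 24 in P5 KO (adjusted p = 0.241 and 1.0). For C1qa every KO library was below every wt library. Csf1r, the receptor macrophages need for survival, was 39.1, 59.7 and 46.9 in P5 wt and 37.2, 34.2 and 61.2 in P5 KO (adjusted p = 0.815), and Emr1, the F4/80 gene, was 7.1, 7.59 and 8.79 in P5 wt and 9.08, 8.0 and 14.4 in P5 KO (adjusted p = 0.726). None of 24 tested myeloid growth factor receptors was called, with a median of −0.05.

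Receptors and enzymes of phagocytes rose beside these. Cd14, a co-receptor for bacterial lipopolysaccharide, was 8.53, 11.9 and 3.91 across the 3 P5 wt libraries against 32.7, 40.7 and 28.8 across the 3 P5 KO libraries. Every KO library lay well above every wt library (log2 fold change 2.04, SE 0.31, adjusted p = 0.000812). Lilrb4, an inhibitory receptor, was 6.75, 6.51 and 0.977 in P5 wt and 29.5, 27.3 and 28.8 in P5 KO (log2 fold change 2.6, SE 0.40, adjusted p = 0.000875), with fractions of molecules in 5 libraries. Clec4n, which encodes dectin-2, was 0, 1.08 and 0.977 in P5 wt and 4.54, 10.2 and 6.0 in P5 KO (log2 fold change 2.24, SE 0.43, adjusted p = 0.00749). Clec7a, which encodes dectin-1, was 0.71, 1.08 and 1.95 in P5 wt and 10.9, 10.9 and 4.8 in P5 KO (2.1, adjusted p = 0.0154), lost on omitting wt library 1 (0.0759) or 2 (0.0634) or KO library 1 (0.0832) or 2 (0.0785). These 2 were the lectins called among 18 tested. Of 26 genes of pattern receptors and their signalling 2 rose, Cd14 and Irak3, a brake on Toll-like receptor signalling, which was 0, 0 and 0 in P5 wt and 0.908, 2.91 and 1.2 in P5 KO (1.35, adjusted p = 0.0236), lost on omitting wt library 1 (0.0688), 2 (0.0765) or 3 (0.0914). The receptor gene Tlr2 was 2.84, 8.68 and 5.86 in P5 wt and 8.17, 3.64 and 2.4 in P5 KO, with overlapping groups. Of 12 tested chemokine and chemoattractant receptors 4 rose (Cxcr4, Ccr2, Cx3cr1 and Fpr2) and 1 fell. The latter was Ccr6, the receptor of Ccl20, at 1.42, 1.08 and 2.93 in P5 wt and 0, 0 and 0 in P5 KO (−1.44, adjusted p = 0.0277), lost on omitting wt library 3 (0.0695) or KO library 1 (0.0845), 2 (0.0714) or 3 (0.0703). Cxcr4, a receptor that holds leukocytes in the marrow, was 3.55, 1.08 and 4.88 in P5 wt and 12.7, 14.5 and 13.2 in P5 KO (log2 fold change 1.92, SE 0.36, adjusted p = 0.00609). Fpr2, a formyl peptide receptor, was 0 in all wt libraries and 2.72, 2.18 and 1.2 in KO, 1 to 3 molecules per library (adjusted p = 0.00969). It was 0 in all 6 libraries at 1.5M as well, so that it was tested only through the 3 libraries in which it is high. The same held for Irak3. Tgm2, a transglutaminase of macrophages, was 0, 0 and 0 in P5 wt and 4.54, 10.9 and 3.6 in P5 KO, at least 7.1-fold higher (adjusted p = 0.00185). Slc11a1, the phagosomal metal transporter, was 0, 0 and 0 in P5 wt and 2.72, 3.64 and 6.0 in P5 KO, at least 4.61-fold higher (adjusted p = 0.00842). Psap, which encodes prosaposin, was 49.7, 71.6 and 41 in P5 wt and 99.9, 117 and 134 in P5 KO, the most abundant gene of this group (log2 fold change 1.13, SE 0.21, adjusted p = 0.00456). Capg, which caps actin filaments, was 7.82, 2.17 and 1.95 in P5 wt and 19.98, 18.9 and 16.8 in P5 KO (log2 fold change 2.16, SE 0.40, adjusted p = 0.0047), and Plbd1, a phospholipase, was 6.39, 9.76 and 5.86 in P5 wt and 19.1, 27.6 and 22.8 in P5 KO (1.55, adjusted p = 0.00749). Vim went the other way, at 234, 242 and 257 in P5 wt and 148, 199 and 167 in P5 KO (−0.52, adjusted p = 0.0421), lost on omitting wt library 1 (0.0833), 2 (0.107) or 3 (0.148) or KO library 1 (0.172) or 3 (0.113), and Actb was 446, 507 and 459 in P5 wt and 438, 436 and 484 in P5 KO, with overlapping groups. Of 28 tested cytoskeletal genes 2 rose (Capg and Tubb6) and 3 fell (Vim, Lcp1 and Gsn). Lcp1, the actin bundler plastin, was 34.1, 47.7 and 34.2 in P5 wt and 21.8, 24.7 and 21.6 in P5 KO (−0.73, adjusted p = 0.048), lost on omitting wt library 1 (0.0618), 2 (0.215) or 3 (0.0839) or KO library 1 (0.119), 2 (0.0596) or 3 (0.116). Gsn, the actin-severing gelsolin, was 26.3, 27.1 and 15.6 in P5 wt and 9.08, 10.2 and 14.4 in P5 KO (−0.96, adjusted p = 0.0496), lost on omitting wt library 1 (0.163) or 2 (0.189) or KO library 1 (0.175) or 2 (0.121). Tubb6, a tubulin, was 0, 0 and 0 in P5 wt and 3.63, 2.18 and 3.6 in P5 KO (2.03, adjusted p = 0.0148), lost on omitting wt library 2 (0.0515) or 3 (0.0616). Of 23 adhesion genes Cd63 fell and Cd44, a hyaluronan receptor, rose, at 10.7, 10.8 and 17.6 in P5 wt and 25.4, 26.2 and 33.6 in P5 KO (1.09, adjusted p = 0.0162), lost on omitting wt library 1 (0.0682) or 2 (0.0765) or KO library 3 (0.0703). Srgn, the proteoglycan of myeloid granules, was 17.1, 10.8 and 4.88 in P5 wt and 24.5, 42.2 and 40.8 in P5 KO (1.73, adjusted p = 0.0237), lost on omitting wt library 2 (0.0693) or 3 (0.139) or KO library 2 (0.103) or 3 (0.0937).

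Chemokine genes split. Of 18 tested ligands 3 rose, 1 fell (Cxcl16, above) and the median was 1.27. Cxcl2, which draws neutrophils through Cxcr2 (chromosome 5, 90903871 to 90905938), was 18.5, 3.25 and 4.88 across the 3 P5 wt libraries against 49.95, 90.2 and 37.2 across the 3 P5 KO libraries. KO library 2 was the highest, and wt library 1 stood above the other wt libraries (log2 fold change 2.84, SE 0.41, adjusted p = 0.000489). Ccl9 was 2.84, 4.34 and 0 in P5 wt and 17.3, 21.1 and 15.6 in P5 KO (log2 fold change 2.78, SE 0.50, adjusted p = 0.00405). Ccl6 was 10.7, 1.08 and 0 in P5 wt and 18.2, 24.7 and 31.2 in P5 KO (3.12, adjusted p = 0.00842), lost on omitting wt library 2 (0.0515) or 3 (0.063). Both are chemokines of mouse myeloid cells. Ccl3 and Ccl4, inflammatory chemokines of macrophages, were not called, with Ccl3 at 8.53, 0 and 0 in P5 wt and 9.99, 21.1 and 6.0 in P5 KO and Ccl4 at 7.82, 3.25 and 1.95 in P5 wt and 18.2, 23.3 and 4.8 in P5 KO (adjusted p = 0.0666 and 0.171). Of 18 tested cytokine and growth factor genes 2 rose and 0 fell. Il1rn, the interleukin-1 receptor antagonist, was 2.13, 0 and 0 in P5 wt and 8.17, 10.2 and 4.8 in P5 KO (2.52, adjusted p = 0.0208), lost on omitting wt library 2 (0.0964) or 3 (0.104) or KO library 1 (0.0832) or 2 (0.0927). Csf1 was 0.71, 0 and 0 in P5 wt and 3.63, 4.36 and 1.2 in P5 KO (1.67, adjusted p = 0.0482), lost on omitting wt library 2 (0.168) or 3 (0.176) or KO library 1 (0.109) or 2 (0.0974). Socs3, which limits cytokine signalling, was 4.26, 2.17 and 0.977 in P5 wt and 9.99, 8.0 and 8.4 in P5 KO (1.61, adjusted p = 0.0481), lost on omitting wt library 2 (0.113) or 3 (0.206) or KO library 1 (0.159), 2 (0.0967) or 3 (0.103). Il1b was 28.4, 27.1 and 32.2 in P5 wt and 30.9, 105 and 64.8 in P5 KO and Tnf was 4.26, 1.08 and 0.977 in P5 wt and 10.9, 8.73 and 2.4 in P5 KO, neither called (adjusted p = 0.0784 and 0.179).

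The promoter of Cxcl2 is shown because it holds 2 matches to the kappaB site that NF-κB proteins bind, searched on both strands as GGG, any 2 bases and TTTCC, and marked in capitals. It is RefSeq's sequence for GRCm38.p6, chr5:90903649-90903898, plus strand, the 250 bases before the start of transcription.
Cxcl2: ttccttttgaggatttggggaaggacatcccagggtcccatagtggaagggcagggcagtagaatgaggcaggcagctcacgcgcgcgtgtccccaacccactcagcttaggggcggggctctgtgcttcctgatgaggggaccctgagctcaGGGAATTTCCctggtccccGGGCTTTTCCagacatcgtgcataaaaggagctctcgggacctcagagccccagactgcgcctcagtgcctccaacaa
This motif occurs in 1.63% of the 32851 promoters, and the choice was made after matches had been seen.

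Genes that NF-κB induces and that restrain it were among the higher calls, and its subunits were not called. The list holds subunits, inhibitors that NF-κB induces and survival genes. Of 25 tested members 4 rose and 0 fell, and 21 had a log2 fold change above 0 (median 0.78). Nfkbiz, an inducible cofactor, was 3.55, 1.08 and 0 across the 3 P5 wt libraries against 6.36, 11.6 and 10.8 across the 3 P5 KO libraries (log2 fold change 2.28, SE 0.40, adjusted p = 0.00368). Nfkbia, which encodes the inhibitor IκBα, was 14.2, 2.17 and 9.77 in P5 wt and 22.7, 27.6 and 32.4 in P5 KO (log2 fold change 1.82, SE 0.36, adjusted p = 0.00969), lost on omitting KO library 3 (0.0568). Tnfaip3, which encodes the brake A20, was 4.97, 4.34 and 1.95 in P5 wt and 12.7, 6.55 and 10.8 in P5 KO (1.23, adjusted p = 0.0448), lost on omitting wt library 2 (0.0765) or 3 (0.206) or KO library 1 (0.186) or 3 (0.124). Bcl2a1d, a survival gene with near copies, was 3.43, 3.07 and 1.63 in P5 wt and 8.02, 8.0 and 7.8 in P5 KO (1.3, adjusted p = 0.0387), lost on omitting wt library 2 (0.0673) or 3 (0.149) or KO library 1 (0.0985), 2 (0.080) or 3 (0.0766). The subunit genes were Nfkb1, at 7.1, 4.34 and 2.93 in P5 wt and 7.27, 8.0 and 7.2 in P5 KO, and Rela, at 0.71, 2.17 and 3.91 in P5 wt and 7.27, 2.91 and 3.6 in P5 KO (adjusted p = 0.522 and 0.49). Relb was 0, 0 and 0.977 in P5 wt and 4.54, 0.727 and 3.6 in P5 KO (adjusted p = 0.17).

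Immediate early genes rose in part. Of 34 tested members 8 rose and 0 fell (median 0.80). Dusp1, a phosphatase that switches off stress kinases, was 7.1, 5.42 and 7.81 across the 3 P5 wt libraries against 41.8, 37.8 and 24 across the 3 P5 KO libraries. The wt libraries were alike, and the lowest KO library was well above them (log2 fold change 2.17, SE 0.25, adjusted p = 3.28e-05). Klf2, a transcription factor of quiescent leukocytes, was 1.42, 0 and 0 in P5 wt and 16.3, 2.18 and 9.6 in P5 KO (2.64, adjusted p = 0.0126), lost on omitting wt library 2 (0.0649) or 3 (0.0667) or KO library 1 (0.0968) or 3 (0.060). Btg1, which restrains proliferation, was 17.1, 17.4 and 11.7 in P5 wt and 49, 34.2 and 33.6 in P5 KO (1.28, adjusted p = 0.0139), lost on omitting wt library 3 (0.0882) or KO library 1 (0.084). Egr1, induced by growth signals, was 4.26, 3.25 and 0.977 in P5 wt and 10.9, 6.55 and 14.4 in P5 KO (1.66, adjusted p = 0.0188), lost on omitting wt library 3 (0.109) or KO library 1 (0.0707) or 3 (0.0856). Klf6 was 16.3, 10.8 and 4.88 in P5 wt and 41.3, 24.4 and 18 in P5 KO (1.36, adjusted p = 0.041), lost on omitting wt library 2 (0.0852) or 3 (0.201) or KO library 1 (0.21) or 2 (0.0876). Gadd45b, a stress gene, was 6.39, 1.08 and 2.93 in P5 wt and 11.8, 14.5 and 10.8 in P5 KO (1.76, adjusted p = 0.0156), lost on omitting wt library 2 (0.0903) or 3 (0.0616) or KO library 1 (0.0542) or 2 (0.0709). Jund and Fos encode AP-1 subunits. Jund was 18.5, 14.1 and 13.7 in P5 wt and 37.2, 24.7 and 39.6 in P5 KO (1.07, adjusted p = 0.0189), lost on omitting wt library 2 (0.0765) or 3 (0.0882) or KO library 1 (0.0824) or 3 (0.0831), and Fos was 24.2, 9.76 and 15.6 in P5 wt and 33.6, 29.8 and 29.997 in P5 KO (0.96, adjusted p = 0.0421), lost on omitting wt library 2 (0.196) or 3 (0.109) or KO library 1 (0.132), 2 (0.0837) or 3 (0.0851). Fosb, at 9.95, 10.8 and 24.4 in P5 wt and 13.6, 8.73 and 10.8 in P5 KO, and Atf3, at 16.3, 10.8 and 26.4 in P5 wt and 6.36, 11.6 and 8.4 in P5 KO, were not called (adjusted p = 0.697 and 0.165). Heat shock genes showed no call among 19 tested, with a median of −0.09. Hspa1b was 60.4, 28.7 and 40.4 in P5 wt and 25.9, 38.5 and 24.4 in P5 KO. Keratinocyte, neutrophil and globin RNA was also higher in P5 KO, with the values given above, and its part in the gains of phagocyte, chemokine, NF-κB and immediate early genes was not tested.

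**Figure D3:**
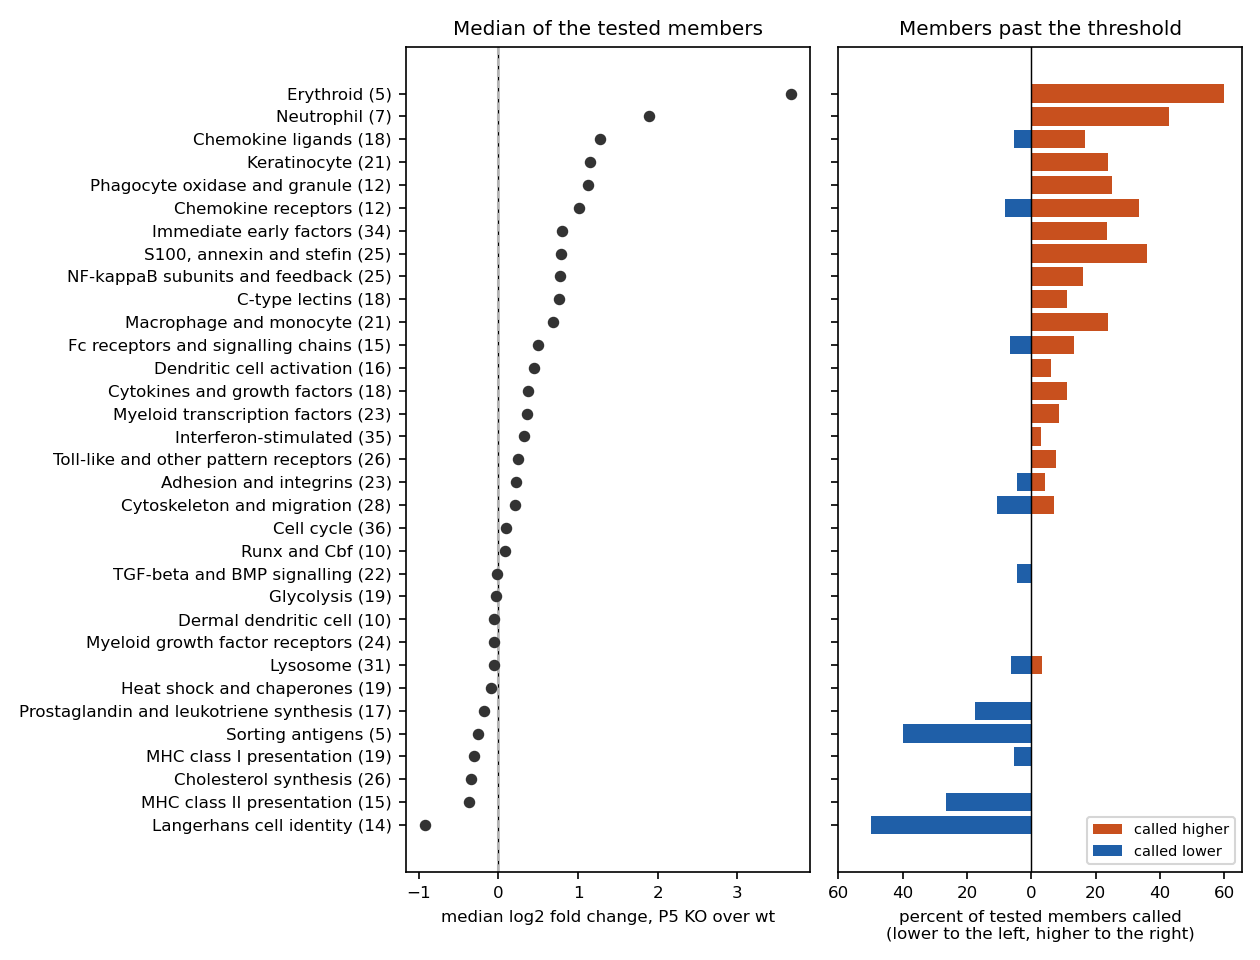
For each gene list with at least 5 tested members (number in brackets), the median log2 fold change of P5 KO over wt (left) and the percent of members called higher (right of 0) or lower (left of 0). The dashed line, the median of all 10023 genes, lies at −0.01. Langerhans cell identity is lowest with 7 of 14 called lower, and the erythroid, neutrophil and chemokine ligand lists are highest. The lists were chosen with earlier results of these data known, which limits what their ranks can show.

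Metabolic and proliferation lists held no call. None of 36 cell cycle, 26 cholesterol synthesis or 19 glycolysis genes passed, with medians of 0.10, −0.35 and −0.03. Mki67, a marker of dividing cells, was 6.39, 2.17 and 4.88 in P5 wt and 5.45, 8.0 and 2.4 in P5 KO, and Gapdh was 63, 61.7 and 44.6 in P5 wt and 53.3, 59.2 and 58.8 in P5 KO, with overlapping groups. Of 35 tested interferon-stimulated genes 1 rose (Slfn2), at 2.84, 1.08 and 0 in P5 wt and 7.27, 5.82 and 8.4 in P5 KO (2.02, adjusted p = 0.0236), lost on omitting wt library 2 (0.0656) or 3 (0.121) or KO library 1 (0.0784) or 3 (0.0811). Of 22 TGF-β and BMP genes 1 fell. The latter was the receptor gene Tgfbr1, at 30.6, 30.4 and 16.6 in P5 wt and 10.9, 8.0 and 12 in P5 KO (−1.22, adjusted p = 0.0487), lost on omitting wt library 1 (0.171) or 2 (0.183) or KO library 1 (0.11), 2 (0.149) or 3 (0.0703). Among 23 myeloid transcription factors Zeb2 and Maf rose. Zeb2 was 2.84, 1.08 and 1.95 in P5 wt and 6.36, 9.45 and 9.6 in P5 KO (1.7, adjusted p = 0.0387), lost on omitting wt library 2 (0.134) or 3 (0.102) or KO library 1 (0.0569), 2 (0.108) or 3 (0.108), and Maf was 3.55, 1.08 and 0 in P5 wt and 6.36, 8.0 and 7.2 in P5 KO (1.95, adjusted p = 0.045), lost on omitting wt library 2 (0.108) or 3 (0.21) or KO library 1 (0.111), 2 (0.125) or 3 (0.11). Sfpi1, which encodes the master factor PU.1, was 17.8, 20.6 and 19.5 in P5 wt and 11.8, 10.2 and 12 in P5 KO, every KO library below every wt library and not called (adjusted p = 0.134).

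The comparison of KO with wt at 1.5M uses the 6 other libraries. It called 529 genes (5.28% of those tested), 325 higher (3.24%) and 204 lower (2.04%). Of the 115 genes higher at P5, 31 were also higher at 1.5M, which is 27.0% of the P5 genes and 9.54% of the 325, and 1 was lower (Btg1). Of the 65 lower at P5, 25 were also lower at 1.5M, 38.5% of the P5 genes and 12.3% of the 204, and 4 were higher (Zmynd15, Tgfbr1, B2m and Vim). Ltc4s had log2 fold changes of −2.87 at P5 and −2.86 at 1.5M, and Tbc1d4 (−2.95 and −4.41) and Epcam (−2.45 and −3.08) were lower at both.

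The difference between the effects at P5 and 1.5M was itself tested and was called for 200 genes (2.0% of those tested, 0.678% higher and 1.32% lower at P5 than at 1.5M), among them 24 of the 115 and 16 of the 65. Zmynd15 fell at P5 and rose at 1.5M, where its counts were 0, 2.15 and 4.44 in wt against 30.7, 36.8 and 30.2 in KO (difference −6.63, adjusted p = 6.97e-07). Its neighbour Cxcl16 fell at P5 and was not called at 1.5M, where it was 56.2, 56.5 and 64 in wt and 54.2, 55.2 and 69.95 in KO (difference −1.59, adjusted p = 0.000792). Cxcl2 rose at P5 and had a log2 fold change of −0.61 at 1.5M (difference 3.45, adjusted p = 0.00112). S100a8, S100a9, Retnla and Stfa1 were 0 in all 6 libraries at 1.5M, and their differences equal the gains at P5, 4.76, 4.89, 4.53 and 3.88 (adjusted p = 0.00101, 0.000615, 0.00863 and 0.00154). With a pseudocount of 0.1 the differences of S100a8, S100a9 and Stfa1 were not called (adjusted p = 0.0996, 0.0662 and 0.132). Crip1, a LIM domain gene, rose at P5, at 27, 25 and 14.7 in P5 wt and 58.1, 77.8 and 58.8 in P5 KO (1.54, adjusted p = 0.0133), a call lost on omitting wt library 3 (0.098) or KO library 2 (0.0743), and its log2 fold change at 1.5M was 4.58 (adjusted p of the difference 0.000285). Cxcr4 and Cd14 rose at both ages and by more at 1.5M, where their log2 fold changes were 5.32 and 4.38 (adjusted p of the difference 0.000297 and 0.00376). Cldn1 fell by more at 1.5M, with a log2 fold change of −5.48 there (adjusted p of the difference 7.4e-05). Trp53i11 fell at P5, and its log2 fold change at 1.5M was −0.48 (adjusted p of the difference 0.0237, lost on omitting wt library 1 (0.0575) or 3 (0.0627) or with a pseudocount of 0.1, at 0.118).

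**Figure D4:**
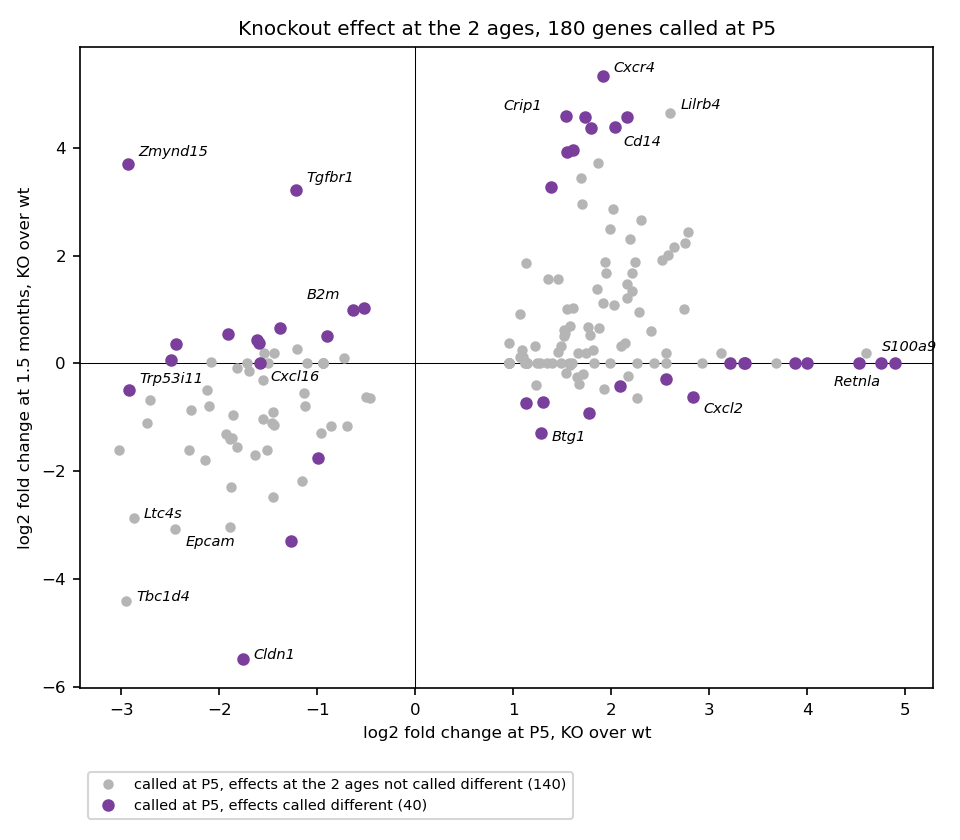
Log2 fold change of KO over wt at P5 (horizontal) and at 1.5 months (vertical) for the 180 genes called at P5, with no library shared between the axes. Purple points are the 40 genes whose effects at the 2 ages were called different. Zmynd15 and Tgfbr1 are lower at P5 and higher at 1.5 months, and S100a9 and Retnla lie on the horizontal line.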

How the data were processed

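RNA of 100 sorted cells per tube was counted by molecular barcode near the 3' end. The authors deposited one table of signal values per gene, aligned with TopHat2 to mm10 per the submitters' processing notes. From the values, each library had been scaled to the same total of 37092, and 92.6 to 93.8% of the P5 values were whole multiples (within 0.01) of what 1 molecule is worth, so these are scaled molecule counts and no count test was the main test. Values were taken as log2(value + 1) for the 10023 of 23420 genes above 0 in at least 3 of 12 libraries, and limma 3.58.1 (R 4.3.3) was fitted with 4 groups, a mean-variance trend and Benjamini-Hochberg adjustment over all genes, tested first on simulated data. Alternatives covered the pseudocount, filter, scaling, libraries fitted, trend, voom, a replicate block, genes of other cell types and each P5 library left out. Same-numbered libraries did not deviate together (correlations −0.031, −0.006 and 0.021). Gene positions are from GENCODE M21 (mm10) and promoters from RefSeq.

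Named genes are, per direction, up to 15 (8 for the difference between ages) with the largest log2 fold change among called genes without overlap and a mean of at least 5 in the higher group. To these were added Cbfb and the Runx genes, called members of the gene lists, the 3 most abundant members of a list and defining cell markers. Other genes were named after their values were seen, among them smaller changes called in all 6 fits that left out 1 library. The members and the lists were chosen with earlier results of these data known.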

Additional observations from a re-analysis of the deposited data

Results flagged for a closer look

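The knockout effect differed between P5 and 1.5M for 200 genes in limma's test of the difference, and 16 of them were named by the rule for the largest differences. Values are log2 fold changes of KO over wt at P5, then at 1.5M, then the effect at P5 minus that at 1.5M. Each difference passed an adjusted p of 0.05 in limma, and those of P2ry10, S100a8 and S100a9 did not with a pseudocount of 0.1.

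The C1q genes, which encode a complement component of tissue macrophages, were called at 1.5M and not at P5. C1qa had −0.61, 4.18 and −4.79, C1qb −0.33, 5.86 and −6.2 and C1qc 0.02, 6.62 and −6.6. Tgfbi, a matrix protein, had 0.83, 6.93 and −6.1, and Tmem119, known as a microglia gene, −1.2, 3.86 and −5.06. Cybb, the catalytic subunit of the phagocyte oxidase, had 0.87, 5.82 and −4.96, and Mmp12, a macrophage elastase, −1.11, 5.17 and −6.27. Zmynd15 was called at both ages in opposite directions, with −2.93, 3.7 and −6.63.

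In the other direction, genes lower in KO at 1.5M had no call at P5. Mmp9, a gelatinase, had 0.73, −4.36 and 5.09, and Nedd4, a ubiquitin ligase, 1.0, −3.97 and 4.97. Prnp, the prion protein gene, had 0.63, −4.19 and 4.82, Cd24a −0.06, −4.33 and 4.28 and P2ry10 −0.52, −4.74 and 4.22. S100a9 had 4.89, 0.00 and 4.89, S100a8 4.76, 0.00 and 4.76 and Retnla 4.53, 0.00 and 4.53, and these 3 genes were 0 in all libraries at 1.5M.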

How the results depend on the processing

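The counts of 115 higher and 65 lower calls depended on the processing. They became 54 and 38 with a pseudocount of 0.1, 75 and 43 without the filter on low values, 56 and 24 in limma without its trend, and 37 to 97 and 34 to 57 with 1 P5 library left out. With median-of-ratios scaling the counts were 112 and 40. Fitting the 6 P5 libraries alone gave 102 and 52, but 0 and 0 when genes at 0 in all 6 stayed in that limma fit (chosen after seeing the data), where 836 genes had an unadjusted p under 0.05, and voom gave 90 and 47. Of the main calls, 74 higher and 46 lower were kept with the 6 P5 libraries alone, and 70 and 37 with voom. The 200 differences between ages became 133 with a pseudocount of 0.1 and 348 with voom, and 155 to 198 with 1 P5 library left out. The causes of these shifts were not tested.

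The labels number the libraries, but no evidence pairs them. With the replicate block 95 genes were higher and 52 lower, 89 and 51 of them among the main calls, and 195 differences between ages were called.

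For each gene named by the rule, the effect that named it (the change at P5 or the difference between ages) kept its direction in all alternatives run, except the P5 changes of Runx2 and Runx3, neither called. With 1 P5 library left out, Runx2 ran from −0.33 to 0.26 and Runx3 from −0.32 to 0.19, and Runx3 was 0.047 with median-of-ratios scaling and 0.017 with voom. Most of these genes were named because they were called, and nearly all genes called at P5 had groups that did not overlap. Their direction could hardly reverse, so a kept direction is no separate support. Over the 114 such effects and all alternatives, a call was lost in 477 results, and 1403 were called or not called as in the main fit. Depth limits genes of a few molecules per library most.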
